A study of Mus musculus with 28 samples.

Results

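The results concern 150 features that were carried at a similar level by 2 B cell subsets of wild-type mice and at a lower level by CD23+ B cells. They were chosen among 40303 features by their depth-normalised counts (CPM, each count relative to the total of its library) averaged over the wild-type libraries. A feature was kept if its means in CD11c+ age-associated B cells (ABC) and in B220- CD138+ long-lived plasma cells (LLPC) both lay between 10 and 4000 CPM, and if the ratio of the first mean to the second lay between 0.5 and 2. Its mean in CD23+ cells of the diseased mutant animals also had to stay below 2 times the CD23+ wild-type mean. Of all features, 7336 met the range, 4972 also the ratio and 4928 also the cap. The score was the smaller of the ABC and LLPC means plus 1 CPM, divided by the CD23+ mean plus 1 CPM, and the 150 features with the highest score are called members here and numbered by rank. Since these wild-type means chose the members, differences between subsets in wild-type animals are given without a test.

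Splenic B cell subsets of female mice, labelled WT or Xist cKO, were sorted by FACS before RNA was measured. Xist is the long noncoding RNA that coats and silences one of the X chromosomes of a female cell, and the cKO animals carry a conditional deletion of it. What drives the deletion, and the animals' ages and strain, are not stated in the labels. WT animals were all labelled low dsDNA, and cKO animals were labelled either low or high by dsDNA, the antibody target used as a sign of lupus-like disease. CD23+ B cells were taken from 6 WT, 3 cKO low and 3 cKO high animals, ABC from 4 WT and 3 cKO high animals, and LLPC from 6 WT and 3 cKO high animals. For ABC and LLPC only cKO high mutants were analysed here, so in those subsets genotype and disease label cannot be told apart. Each group's libraries are labelled as biological replicates, and the 3 cKO high animals gave all 3 subsets.

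CD23+ cells are mostly follicular B cells, the resting, recirculating cells that respond to antigen with help from T cells. ABC are antigen-experienced B cells that carry CD11c, build up with age and in lupus, and can turn into antibody-secreting cells. Plasma cells are the end stage of the lineage: they have lost much of the B cell programme and devote a large part of their RNA to antibody chains. A feature present in both ABC and plasma cells and scarce in CD23+ cells is therefore shared by an antigen-experienced and a terminally differentiated state. The feature IDs carry the prefix MGP_BALBcJ_G with no gene names, and 0 of 40303 could be matched to the annotation used here. Roles of the members, the Xist level and the defining markers of the sorted cells were not checked for that reason, and members are described by rank and level.

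Library totals ran from 2133489 to 23866710 counts. The 10 leading features of each library took 12.6% to 18.4% of the counts in CD23+ and ABC libraries and 40.5% to 51.3% in LLPC libraries, with LLPC WT replicate 6 apart at 27.4%. Scaling for composition by edgeR's TMM factors ran from 1.11 to 1.21 in CD23+ and ABC libraries and from 0.608 to 0.849 in LLPC libraries, with 1.03 in LLPC WT replicate 6. The number of features with a count was 29517 in CD23+ WT replicate 6 and 16913 to 18879 in its 5 sister libraries. LLPC WT replicate 6, ABC WT replicate 4 and CD23+ WT replicate 6 came from 1 animal, by the animal number in the deposited tables' names. In bulk samples, fewer cells of a type and less RNA per cell cannot be told apart.

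Together the members took 0.185% ± 0.00604 of the counts in CD23+ WT (SD, n = 6). Their share was 0.693% ± 0.0440 in ABC WT (n = 4) and 0.752% ± 0.144 in LLPC WT (n = 6). In the mutant groups it was 0.190% ± 0.00917 in CD23+ cKO low, 0.194% ± 0.0199 in CD23+ cKO high, 0.784% ± 0.0279 in ABC cKO high and 0.678% ± 0.0495 in LLPC cKO high (n = 3 each). Every ABC and LLPC library lay above every CD23+ library in this share, also in cKO high, whose ABC and LLPC libraries the rule did not use. The members' median level was 5.32 to 6.28 CPM over the CD23+ WT libraries, 20.6 to 26.8 CPM over ABC WT and 17.97 to 46.7 CPM over LLPC WT. The highest of the LLPC values was that of replicate 6.

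**Figure D1:**
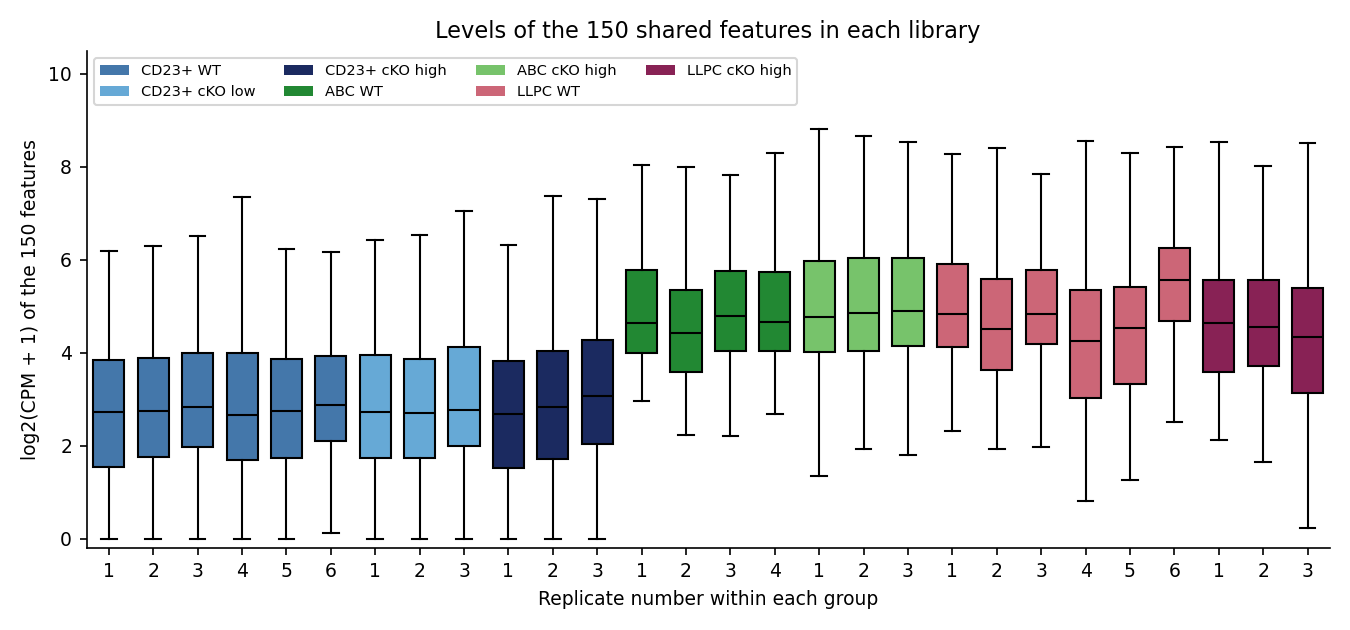
Levels of the 150 members in each of the 28 libraries, as log2(CPM + 1), with a box from the lower to the upper quartile, a line at the median and whiskers to the farthest value within the usual box plot limit. The x axis gives the replicate number within each coloured group. CD23+ libraries of every group sit low, with medians of 5.32 to 7.35 CPM, and LLPC WT replicate 6 has the highest median, 46.7 CPM.

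The list was not a set of features absent from CD23+ cells. In CD23+ WT, 14 members had a mean under 1 CPM, 88 lay from 1 to under 10 CPM and 48 reached 10 CPM or more, and 140 members were counted in all 28 libraries. The median score was 2.91. It was at least 10 for 16 members, at least 5 for 38 and at least 3 for 69, while 61 scored from 2 to under 3 and 20 under 2. At the lower end, members 148, 149 and 150 scored 1.88, 1.87 and 1.87, and the next features outside scored 1.87, 1.86 and 1.86, so the end of the list is not a step in the data. At or above the last member's score, 135 further features were in range but outside the ratio bounds, 111 of them with an ABC mean under 0.5 times the LLPC mean and 24 with one above 2 times it. The cap on CD23+ cKO high removed another 43.

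ABC and plasma cells did not carry the members at equal levels throughout. On plain CPM the WT mean was higher in LLPC for 93 members and in ABC for 57, with a median ABC to LLPC ratio of 0.852. TMM factors were lower in every LLPC WT library than in any ABC WT library, so this balance depends on the scaling. A list built on TMM-scaled CPM shared 85 members with this one. The extremes came close to the bounds: member 33 had a ratio of 0.502 (19.4 CPM in ABC, 38.7 in LLPC) and member 71 a ratio of 1.98 (98.9 against 49.9 CPM). The nearest features outside, at a qualifying score, had ratios of 0.494 and 2.22. For 134 members the range of the LLPC WT libraries overlapped that of the ABC WT libraries. The ratio bounds kept these means close, so the overlap was largely built in. The share over other features is not given, and nothing is read from the count.

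For 141 members every ABC WT library lay above every CD23+ WT library, for 110 members every LLPC WT library did, and for 107 both held. Over all features that averaged at least 10 CPM in either group, 15.1% stood apart upward in ABC and 11.8% in LLPC. Both held for 5.12% of the features that averaged at least 10 CPM in ABC and LLPC. The rule used these libraries, so nothing is read from the gap. The remaining 40 members had at least 1 LLPC WT library at or under the highest CD23+ WT library.

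Member 1 (MGP_BALBcJ_G0017696) and member 2 (MGP_BALBcJ_G0019230) had the highest scores. Member 1 ran from 0 to 0.707 CPM in CD23+ WT, with a median of 0.161. It measured 65.4, 30.6, 43.9 and 118 CPM in ABC WT replicates 1 to 4, and 6.79 to 123 CPM in LLPC WT, with a median of 58.6. Both subsets thus carried it far above CD23+ cells, and each varied several-fold among its own animals. In the cKO high animals it measured 17.6, 16.4 and 63.4 CPM in ABC and 127, 129.8 and 37.6 CPM in LLPC. Animals 1 and 2 were low in ABC and high in LLPC, while animal 3 was higher in ABC than in LLPC, so the groups overlapped.

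Member 2 had a similar profile. It ran from 0 to 0.707 CPM in CD23+ WT, with a median of 0.0628. It measured 50.8, 34.6, 15.1 and 87.4 CPM in ABC WT and 10.4 to 130.2 CPM in LLPC WT, with a median of 60.9. In cKO high it measured 16.2, 8.44 and 60.9 CPM in ABC and 176, 111 and 28.7 CPM in LLPC. As for member 1, animals 1 and 2 were lower than animal 3 in ABC and higher than it in LLPC. In the LLPC WT group members 1 and 2 were both lowest in replicate 4.

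Member 3 was steadier among plasma cell libraries, at 20.3 to 36.3 CPM in LLPC WT with a median of 30.6, and it measured 67.3, 44.7, 49.6 and 50.9 CPM in ABC WT. Member 4 was the most abundant of the first 10 and had the highest CD23+ level among them, 19.3 CPM ± 1.19 in CD23+ WT (SD, n = 6). It measured 527, 605, 447 and 432 CPM in ABC WT and 135 to 445 CPM in LLPC WT, with a median of 411. Members 5 to 10 had CD23+ WT means of 0.701 to 3.29 CPM, ABC WT means of 20.9 to 87.5 CPM and LLPC WT means of 34.3 to 91.1 CPM. Of these, member 8 had the most even levels, with 60.9 CPM ± 3.39 in ABC WT (SD, n = 4) and 57.7 CPM ± 11.8 in LLPC WT (SD, n = 6).

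**Figure D2:**
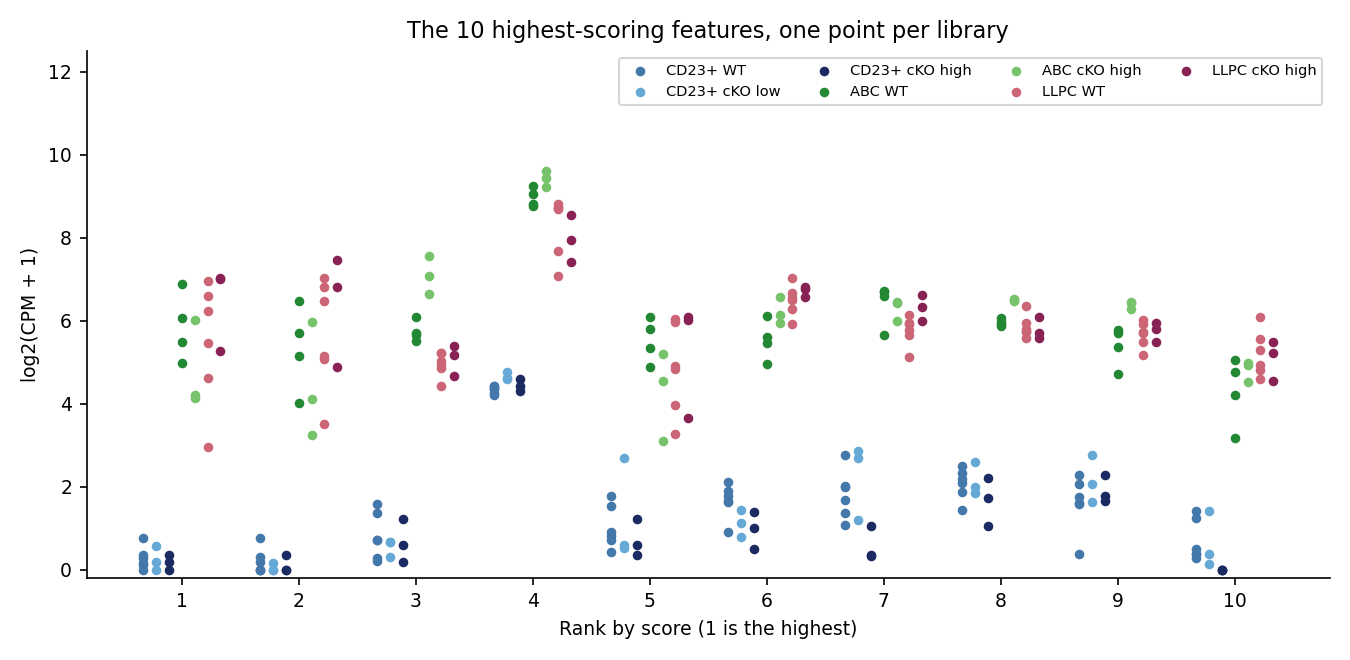
The 10 members with the highest score, one point per library, as log2(CPM + 1) by rank and coloured by group. All CD23+ points lie below the ABC and LLPC points of the same member, and the points of members 1, 2 and 5 are spread widest within ABC and LLPC.

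The most abundant members over ABC and LLPC were members 4, 36 and 101. Member 36 averaged 268 CPM ± 81.3 in ABC WT, 317 CPM ± 36.6 in LLPC WT and 51.3 CPM ± 7.82 in CD23+ WT. Member 101 averaged 447 CPM ± 88.7, 535 CPM ± 153 and 182 CPM ± 42.1 in the same groups (SD, n = 4, 6 and 6). These members were thus plentiful in CD23+ cells too.

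The members varied more among LLPC WT animals than among ABC WT animals. The highest library was a median of 2.96 times the lowest in LLPC WT and 1.68 times in ABC WT, although 6 libraries make a wider range than 4. In LLPC WT 112 members spanned at least 2-fold, 59 at least 5-fold, 37 at least 10-fold and 15 at least 20-fold, against 53, 6, 1 and 1 in ABC WT. The median coefficient of variation was 42.6% in LLPC WT for members and 27.3% for the 4928 features from which the list was drawn. In ABC WT it was 22.3% for members and 13.1% for those features.

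Replicate 6 held the highest LLPC WT value for 73 members, and the lowest for 31. Among the 4928 features it was highest for 68.8%, so its place at the top was not particular to the members. It reached at least 2 times each other LLPC WT library for 37 members, and for 13.7% of the 4928 features. Among the 37 members that spanned at least 10-fold, 34 were highest in replicate 6 and 3 in replicate 1. Their median level was 60.8 CPM in replicate 6, against 17.1, 8.39, 20.3, 3.49 and 4.99 CPM in replicates 1 to 5. In LLPC cKO high it was 8.60, 8.08 and 5.40 CPM, at the level of the lower WT libraries, and in ABC WT it was 10.8 to 15.5 CPM. The 38 members that spanned under 2-fold had medians of 35.7 to 42.5 CPM over the LLPC WT libraries, replicate 6 included, and 37.7 to 45.3 CPM over LLPC cKO high. The list therefore holds members that every plasma cell library carried and members whose plasma cell mean came largely from 1 library. Not all of the 37 were of the second kind. Member 1, among them, measured 95.6, 74.2, 43.1, 6.79, 23.7 and 123 CPM in LLPC WT replicates 1 to 6. Markers of other cell types could not be identified among the unnamed features, so the part of such cells in replicate 6 was not tested.

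**Figure D3:**
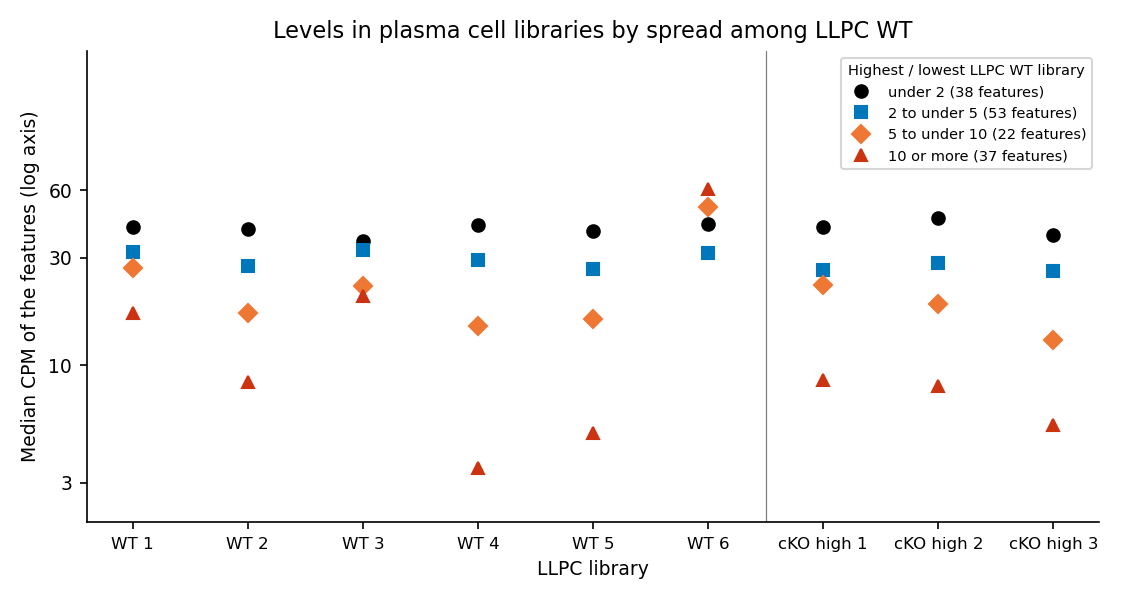
Median CPM (log axis) of the members in each LLPC library, with members split by the ratio of the highest to the lowest LLPC WT library. The 38 members under 2-fold stay between 35.7 and 45.3 CPM in all 9 libraries, while the 37 members at 10-fold or more run from 3.49 CPM in WT replicate 4 to 60.8 CPM in WT replicate 6.

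Single members show both kinds. Member 85 had the widest range, with 14.5, 6.02, 26.5, 0.755, 4.99 and 113 CPM in LLPC WT replicates 1 to 6. The last value alone lifted its LLPC WT mean to 27.6 CPM, and in LLPC cKO high it measured 4.30, 2.33 and 1.18 CPM, below its CD23+ WT mean of 6.35 CPM. Members 98 and 129 followed, with ranges of 0.849 to 72.9 CPM and 1.51 to 66.7 CPM. At the other end, member 127 measured 163 to 194 CPM, with a median of 179, and member 134 measured 124 to 153 CPM, with a median of 137. These 2, with member 36, had the narrowest ranges of the list. Without replicate 6, 17 members would have had an LLPC WT mean under 10 CPM and 5 a ratio above 2, which makes 19 members that would have missed the range or the ratio.

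Whether the members were also higher in ABC and plasma cell libraries that the rule did not use was tested in cKO high, against CD23+ cKO low cells, also unused by the rule. CD23+ libraries of the same cKO high animals had set the cap. The animals and the disease label differ between the groups compared, and both comparisons share the CD23+ cKO low libraries. The filter on low counts passed 139 members in the CD23+ libraries taken alone. Of these, 129 were higher in ABC cKO high than in CD23+ cKO low and 0 lower (edgeR, adjusted p under 0.05), against 18.7% of all features tested higher and 13.3% lower. In LLPC cKO high 130 of the 139 were higher and 0 lower, against 31.4% and 29%. Their median log2 fold change was 1.84 in ABC and 2.58 in LLPC, and the median of all features tested was 0.01 and -0.01. The other 11 members were too scarce in CD23+ cells for that filter and entered the fit through ABC and LLPC, where they are high, so their calls (10 in ABC and 11 in LLPC, all higher) support nothing. With them, 139 and 141 of 150 were called higher, and the medians were 1.98, with quartiles of 1.41 and 3.00, and 2.68, with quartiles of 1.87 and 3.67. The result for LLPC depends in part on scaling. On plain totals 126 of all 150 members were higher and 2 lower, against 14.6% and 63.5% of all features. The median of the 150 stood 2.69 above that of all features under both scalings. A change of scaling moves every feature by about the same amount, so that agreement was fixed in advance and tests nothing.

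The largest differences were in members nearly absent from CD23+ cKO low. Members 15, 2, 12 and 16 are among the 11 scarce members, so their ratios describe the counts and are not read as support. Member 15 had 0 counts in all 3 CD23+ cKO low libraries, and measured 36.9, 54.4 and 27.4 CPM in ABC cKO high and 8.45, 21.5 and 18.2 CPM in LLPC cKO high. Against a floor of 3 counts over the CD23+ cKO low group it was at least 308-fold higher in ABC cKO high and at least 134-fold higher in LLPC cKO high. Member 2 had 1 count in the CD23+ cKO low group. By pooled counts it was 751-fold higher in ABC (interval from counting 134 to 29730) and 2741-fold higher in LLPC (491 to 108330). For members 12 and 16, also with 1 count there, the ratios were 864 (154 to 34195) and 163 (28.6 to 6484) in ABC and 199.95 (35.3 to 7953) and 366 (65.1 to 14506) in LLPC.

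Members 3 and 13 were also among the largest in ABC. Member 3 measured 0.571, 0.594 and 0.237 CPM in CD23+ cKO low and 187, 98.9 and 134 CPM in ABC cKO high, with a log2 fold change of 8.17 (SE 0.402, edgeR adjusted p = 4.22e-09). Member 13 differed by 7.62 (SE 0.381, edgeR adjusted p = 4.89e-10), with 60.7 to 104 CPM in ABC cKO high and 0.237 to 0.495 CPM in CD23+ cKO low. In both the groups stood apart. Member 1, also one of the 11 scarce members, is given by its values alone: 0.143, 0 and 0.474 CPM in CD23+ cKO low against 37.6 to 129.8 CPM in LLPC cKO high.

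The members that were not called differed between the subsets, counting all 150. In LLPC the 9 that were not called were all among the 37 with the 10-fold range in LLPC WT: 28 of those 37 were called, against 38 of 38, 53 of 53 and 22 of 22 in the groups with narrower ranges. In ABC 32 of the 37 were called, against 38, 48 and 21. The LLPC WT libraries that made these groups also chose the members, and the counts include the 11 scarce members. They are therefore a description. Members 98 and 56 were called in neither. Member 98 measured 5.43, 1.78 and 56.0 CPM in CD23+ cKO low. It measured 10.4, 8.44 and 2.48 CPM in ABC cKO high and 6.61, 5.39 and 2.87 CPM in LLPC cKO high. Among these mutant libraries its highest value was thus in a CD23+ library. Members 56 and 98 are singled out after their values were seen, member 98 also as one of the widest ranges.

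Against CD23+ cells of the same cKO high animals the values are a description, since the rule capped the CD23+ cKO high mean. On plain CPM, 144 members had every ABC library above every CD23+ library, against 28.2% of features that averaged at least 10 CPM in either group, and 111 had every LLPC library above, against 13.7%. For 3 members every LLPC cKO high library lay below every CD23+ cKO high library, against 73.1%.

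**Figure D4:**
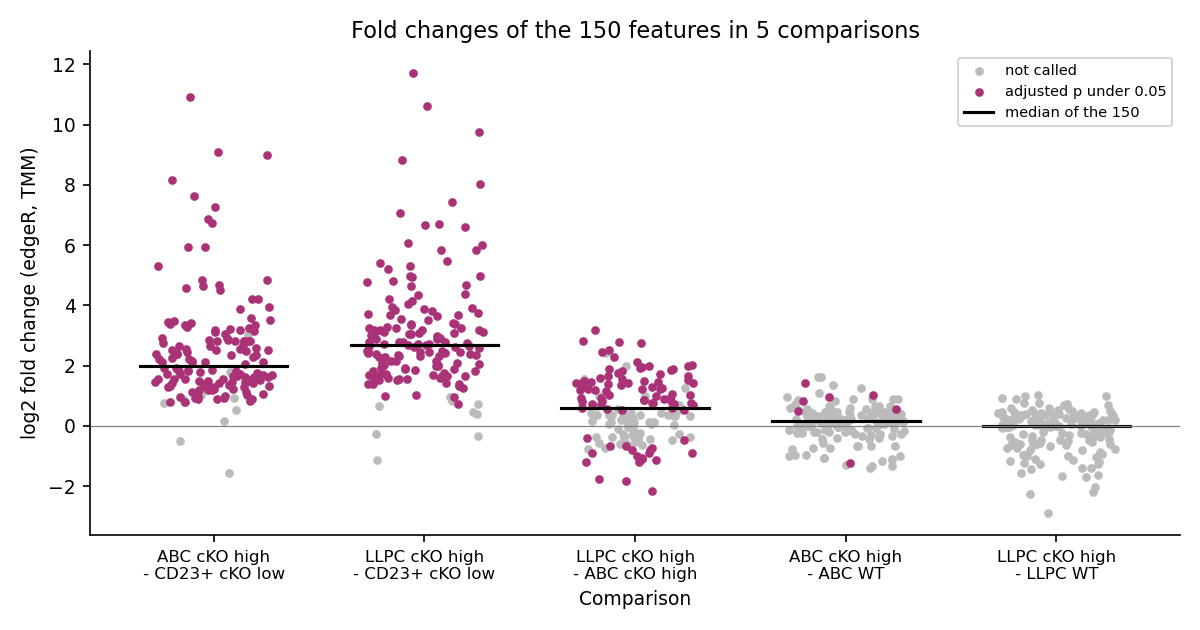
log2 fold changes of the 150 members in 5 comparisons (edgeR, TMM scaling), one point per member, coloured where the adjusted p was under 0.05, with a line at the median. The medians of all 150 are 1.98 and 2.68 against CD23+ cKO low, where 11 scarce members entered only through ABC and LLPC, 0.59 for LLPC against ABC in cKO high, and 0.15 and -0.00 for cKO high against WT in ABC and LLPC.

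The balance between ABC and plasma cells was then compared in the cKO high animals, which took no part in the ratio bounds. The bounds had still chosen the members by the WT ratio of these subsets, so gaps to all features were largely set beforehand. On plain CPM 97 members kept a ratio of ABC to LLPC means from 0.5 to 2, 41 were above 2 and 12 below 0.5, with a median of 1.32 and a range of 0.214 to 8.74. For 21 members every LLPC library lay above every ABC library and for 65 every one lay below, against 9.72% and 77.8% of features that averaged at least 10 CPM in either group. Of the 4928 features, 67.0% lay within the bounds, 31.8% above and 1.20% below, with a median of 1.71. The share of members within the bounds was thus near that of the features from which the score had picked them.

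With composition scaling, 68 members were higher in LLPC cKO high than in ABC cKO high and 19 lower (edgeR, adjusted p under 0.05), against 24.4% and 24.2% of all features tested, and the members' median log2 fold change was 0.59. The direction turned with the scaling. On plain totals 23 members were higher and 62 lower, against 8.66% and 65.2% of all features, with a median of -0.37. Plain totals moved the median of all features by -0.97. Relative to that median the members stood 0.63 higher in LLPC under both scalings. That agreement was fixed in advance, because such a change moves all features about alike. On plain totals most features were lower in LLPC, while the rule had kept the members' WT means within 2-fold on plain CPM. An excess toward LLPC over all features was therefore largely set by the rule, and nothing is read from it. A list rebuilt from TMM-scaled CPM had 36 members higher and 36 lower, so the split also rests on how the members were chosen.

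Member 67 was the furthest toward plasma cells. It measured 9.67, 9.37 and 21.5 CPM in ABC cKO high and 57.6, 63.5 and 68.4 CPM in LLPC cKO high, with no overlap and a log2 fold change of 3.17 (SE 0.434, edgeR adjusted p = 0.000137). Member 26 measured 7.58, 15.5 and 13.9 CPM in ABC and 30.4, 43.8 and 49.3 CPM in LLPC, a difference of 2.80 (SE 0.299, edgeR adjusted p = 8.42e-07). Member 25 measured 1.98, 3.28 and 9.33 CPM in ABC and 17.5, 19.7 and 14.3 CPM in LLPC, a difference of 2.78 (SE 0.525, edgeR adjusted p = 0.00047). In both the groups stood apart on plain CPM as well.

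Members 2 and 1 came next in that direction, at 2.74 and 2.50, but their groups overlapped in animal 3. With the animal as a block the edgeR adjusted p was 0.113 for member 2 and 0.0738 for member 1, and with only the 2 groups in the fit it was 0.0875 and 0.061. The call for member 2 was also lost without ABC cKO high replicate 1 (edgeR adjusted p = 0.0586), without LLPC cKO high replicate 1 (edgeR adjusted p = 0.0518) and on plain totals (edgeR adjusted p = 0.0557).

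In the other direction, member 27 (MGP_BALBcJ_G0025081) was furthest toward ABC. It measured 34.6, 23.9 and 27.4 CPM in ABC cKO high and 3.69, 3.95 and 2.19 CPM in LLPC cKO high, and fell by 2.17 on the log2 scale (SE 0.313, edgeR adjusted p = 1.48e-05). Its WT means had been 15.8 CPM in ABC and 12.7 CPM in LLPC, the latter with 34.3 CPM in replicate 6 and 2.26 to 16.1 CPM in the others. Members 132, 85, 129 and 30 were lower in LLPC by -1.84, -1.77, -1.21 and -1.19 in log2. All 5 spanned at least 10-fold in LLPC WT with replicate 6 highest, and their LLPC cKO high libraries lay below every ABC cKO high library. The call for member 30 was lost without ABC cKO high replicate 1 (edgeR adjusted p = 0.0938) and without LLPC cKO high replicate 1 (edgeR adjusted p = 0.0677). In a fit of all 28 libraries members 30, 85 and 129 were not called (edgeR adjusted p = 0.0703, 0.0975 and 0.138).

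**Figure D5:**
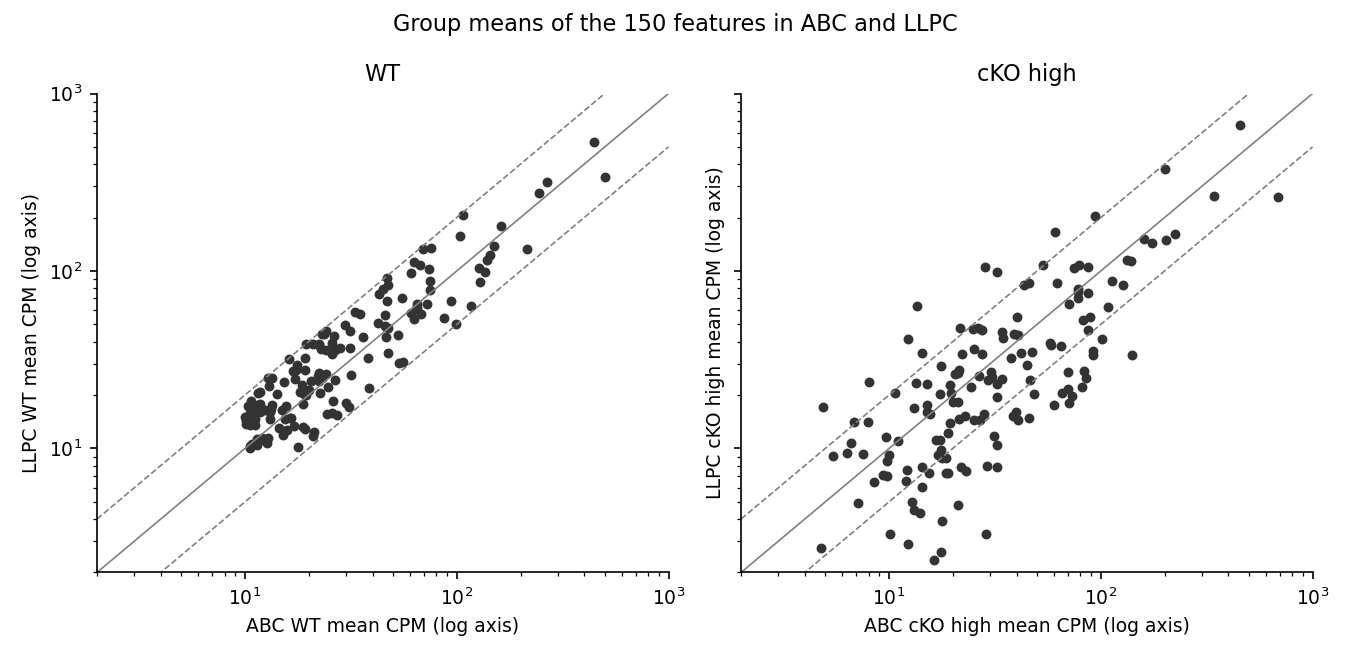
Mean CPM of the 150 members in ABC (x, log axis) and LLPC (y, log axis), in WT on the left and cKO high on the right, with a solid line at equality and dashed lines at ratios of 0.5 and 2. The WT points lie within the dashed lines because the rule put them there, while in cKO high 41 members lie beyond the ABC side and 12 beyond the LLPC side.

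The remaining comparisons set mutant against WT libraries within a subset, and the WT side of each also chose the members. In ABC, 6 of 150 members rose from WT to cKO high and 1 fell (edgeR, adjusted p under 0.05), against 0.543% and 0.590% of all features tested. The median log2 fold change of the members was 0.15, with 98 positive and 52 negative, against -0.01 over all features. On plain CPM 32 members had every cKO high library above every WT library, against 7.20% of features, and 5 had every library below, against 5.75%. DESeq2 called 21, against 1.85% of 21545 features in either direction, and limma 20, against 2.09% of 12714. The DESeq2 fit had no filter on low counts, so these shares have unlike bases. With edgeR the number depended on single libraries: it was 17 without WT replicate 2, 3 without cKO high replicate 2, and 2 without WT replicate 1, cKO high replicate 1 or cKO high replicate 3. The shares of all features called in these refits are not given, so the changes are not read as particular to the members.

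Member 3 had the largest increase. Its ABC cKO high values of 187, 98.9 and 134 CPM all lay above the WT values of 44.7 to 67.3 CPM, a log2 fold change of 1.41 (SE 0.204, edgeR adjusted p = 0.0135). Member 68 measured 28.6, 25.8 and 26.7 CPM in cKO high and 11.7, 10.3, 15.1 and 16.4 CPM in WT. Member 59 measured 47.9, 30 and 43.8 CPM in cKO high and 19.1, 22.6, 18.9 and 24.5 CPM in WT. The log2 fold changes of members 68, 59, 48 and 8 were 1.02, 0.95, 0.81 and 0.55, and for each the groups stood apart. Calls for these 4 were lost when single libraries were left out, while that of member 3 passed without any one of the 7 and was lost only in a fit of all 28 libraries (edgeR adjusted p = 0.0508). The edgeR adjusted p of member 68 reached 0.21 without cKO high replicate 1, that of member 59 0.204 without the same library, that of member 48 0.145 without cKO high replicate 3 and that of member 8 0.116 without cKO high replicate 1.

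Member 75 (MGP_BALBcJ_G0034990) was the member that fell. It measured 103, 128, 102 and 82.5 CPM in ABC WT and 42.9, 39.4 and 47.2 CPM in ABC cKO high, a fall to below every WT library and to the level of CD23+ cKO high cells (43.9, 44.1 and 52.0 CPM). It fell by 1.25 on the log2 scale (SE 0.139, edgeR adjusted p = 0.000521), and passed in each of 15 alternatives. In LLPC it measured 71.8 to 345 CPM in WT, with a median of 128, and 76.6, 90.5 and 84.0 CPM in cKO high. The LLPC values overlapped.

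In LLPC, 0 members were called between cKO high and WT (edgeR), and 10 had an unadjusted p under 0.05. DESeq2 and limma also called 0. Of all features tested edgeR called 0.00852%, all lower, DESeq2 0.0137% and limma 0.017%. The smallest edgeR adjusted p of a member was 0.751. The 6 WT libraries spread so widely that a lack of calls does not show equal levels: of simulated 2-fold changes edgeR recovered 28% in this comparison, against 76% in ABC. The simulation drew features at random, and the members varied more in LLPC WT than the features they were picked from. These rates therefore need not hold for the members. On plain CPM 102 members had a lower mean in cKO high and 31 of them at least 2-fold lower. In every library 2 were lower, against 3.01% of features, and 1 higher, against 0.391%. The edgeR median log2 fold change on plain totals was -0.27 over all features and -0.19 over the members. With composition scaling 75 members were positive and 75 negative, with a median of -0.00. Of the 37 members that spanned at least 10-fold in LLPC WT, 27 had a cKO high mean under 0.5 times the WT mean on plain CPM. So did 5 of the 22 that spanned 5-fold to under 10-fold, against 0 of the 38 and 0 of the 53 with the narrowest ranges. The WT libraries made that split, so it is a description.

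The difference between the mutant effects in LLPC and ABC was tested directly. edgeR called 0 members, with 34 at an unadjusted p under 0.05 and a smallest adjusted p of 0.252, against 0.0354% of all features called. DESeq2 called 0 (0.131% of all features) and limma 1 (0.0708%), member 48 (log2 difference -0.92, limma adjusted p = 0.0461), which rose in ABC and measured 28.9 to 30.4 CPM in LLPC cKO high against 26.6 to 40.3 CPM in LLPC WT. Member 75, the member lower in ABC, was not distinguished between the subsets, with a difference of 0.64 (SE 0.384, edgeR adjusted p = 0.548).

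In CD23+ cells, 139 members passed the filter on low counts for the comparison of cKO low with WT, and 0 were called by edgeR, DESeq2 or limma. The edgeR test found 7 with an unadjusted p under 0.05, and called 0.0239% of all features, against 0.016% with DESeq2 and 0.0319% with limma. In CD23+ cKO high, where the rule had capped the mean, 83 members had a higher mean than in WT and 67 a lower one.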

How the data were processed

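Cells were stored in TRIzol LS, and RNA was purified with the QIAGEN RNeasy Micro kit and made into libraries with the Takara SMARTer Pico V3 kit, per the labels' protocols. Reads were processed with FastQC, STAR 2.7.1a and featureCounts, per the submitters' processing notes. The build, the strand setting and whether molecular identifiers were used are not stated there, so overlapping features and near-identical copies cannot be told apart. Each library has 1 deposited table of whole-number counts, without normalization.

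Groups follow the labels. A number in the names of the deposited tables was read as the animal (12 animals, 7 with all 3 subsets). The p-values measure the spread between these libraries. The main fits over several subsets had no term for the animal, so they treated libraries of 1 animal as independent. Deviations from group means correlated at 0.0170 to 0.115 for 9 pairs of cKO high libraries of 1 animal in different subsets, and at -0.0839 to 0.0147 for 18 pairs of different animals. Deviations within a group cancel out, so higher values for pairs of 1 animal force lower ones for pairs of different animals. The animal numbers pair LLPC with ABC in cKO high.

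CPM used plain totals. Tests used edgeR 4.0.16 in R 4.3.3 on the counts: filterByExpr, TMM, robust dispersions, a two-sided quasi-likelihood test and Benjamini-Hochberg adjustment over all features tested, called at an adjusted p under 0.05. ABC and LLPC were fitted alone, CD23+ with its 3 groups, comparisons within cKO over all 12 cKO libraries, and the difference between subsets over all 28. Intervals on ratios of counts cover counting error only. As alternatives, limma 3.58.1 (voom with sample weights), DESeq2 1.42.0, other scalings, filters, sample sets and list rules, a replicate block and each library left out were run. DESeq2 was run without the filter on low counts, so its shares of all features rest on more features than those of edgeR and limma. The edgeR steps were tested on simulated data. Members, lists and tests were chosen with earlier results of these data known. Members given singly are ranks 1 to 10, the ends of the list, the 3 most abundant, the 3 widest and 3 narrowest LLPC WT ranges, those at the ratio bounds and up to 5 per direction and comparison by size of the fold change. No sequence or gene name is given, because the IDs matched none in the reference used here.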

Additional observations from a re-analysis of the deposited data

Results flagged for a closer look

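In 4 of 36 checks of a group of libraries for a value far from the others, 1 library stood out, and chance gives 1.8, since it marks about 1 in 20 groups. The members' median level in LLPC WT was highest in replicate 6, at 46.7 CPM, with the other 5 libraries at 17.97 to 27.5 CPM. The members' share of counts in CD23+ WT was highest in replicate 3, at 0.197%. Member 2 was highest in CD23+ WT replicate 6, at 0.707 CPM, the library with counts in the most features. Member 7 was lowest in ABC WT replicate 2, at 49.6 CPM, against 94.7 to 103 CPM in the other 3.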

How the results depend on the processing

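Of the original 150 members, 80 stayed when totals left out the most abundant features, 93 under ratio bounds of 0.67 to 1.5, and 85 on TMM-scaled CPM. Leaving out each library kept 119 to 146, the fewest without LLPC WT replicate 6. In ABC, cKO high against WT, the 7 calls became 3 with a fold change of at least 2, 21 with DESeq2, 20 with limma, 11 on plain totals, 28 without a filter, 3 in a fit of all 28 libraries and 4 with a replicate block; single libraries left out gave 2 to 17. For CD23+ cKO low against WT 1 member was called without a filter, member 67, and for LLPC against ABC in cKO high 54 of the 87 had a fold change of at least 2. limma called 1 member in the difference between LLPC and ABC. For most alternatives, here and below, the share of all features called is not given. The changes are therefore not read as particular to the members.

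With single libraries left out, calls ran from 71 to 85 for LLPC against ABC, 130 to 137 for ABC and 139 to 144 for LLPC against CD23+ cKO low, and 0 to 0 for LLPC cKO high against WT, CD23+ cKO low against WT and the difference between subsets. The cause of these changes was not tested. With the animal as a replicate block, LLPC against ABC gave 89 calls, and the block by replicate number gave 136 and 141 against CD23+ cKO low and 0 in LLPC and CD23+. Replicate numbers do not pair WT with cKO animals. In lists rebuilt after the data had been seen, on 5 LLPC WT libraries and on TMM-scaled CPM, ABC against CD23+ cKO low gave 140 and 141 calls, LLPC against CD23+ cKO low 148 and 142, and cKO high against WT 8 and 7 in ABC.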
